A study of Mus musculus with 20 samples.

Results

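Myeloid C-type lectin receptors are surface proteins of monocytes, macrophages, dendritic cells and neutrophils. The 8 genes described here were Clec4e, Clec4d, Clec4n, Clec7a, Clec5a, Clec4a2, Clec4a3 and Clec10a. They were found by their names among 27670 gene names on the array and were measured by 12 of its 41174 probes. For 7 genes the name stood on the array, and Clec10a, which the array calls Mgl1, was found through its RefSeq accession. Of the 12 probes, 9 passed the filter on dim probes, which asked for a signal well above background on 10 or more of the 20 arrays, and were tested, so that every gene had at least 1 tested probe.

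RNA of whole mouse trachea was hybridized to one-colour Agilent arrays, 1 per sample. Wild-type and Myd88KO mice each gave 5 uninjured and 5 injured tracheas. Injury was made with 2% polidocanol, a detergent that strips the epithelium from the airway, and the tracheas were collected 3 days later. All mice were C57/Bl6 and 4 months old by their labels, whereas the study's methods give 4 to 6 months and both sexes without assigning them to samples. Uninjured mice served as controls and no sham treatment is named. The Myd88KO mice lacked Myd88, an adaptor of Toll-like and interleukin-1 receptors, in every cell from birth. They had been backcrossed for 6 generations to C57/Bl6JOlaHsd and bred apart from the wild-type colony, so that loss of Myd88 and other differences between the colonies cannot be told apart. Trachea was taken whole after excess connective tissue had been removed.

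C-type lectin receptors bind sugars or lipids of microbes and of dying cells. Clec4e (Mincle), Clec4d (MCL) and Clec4n (Dectin-2) have almost no signalling tail of their own and pass signals through the Fc receptor gamma chain, the product of Fcer1g. Clec7a (Dectin-1), the receptor for fungal beta-glucan, carries its own tyrosine motif, and Clec5a (MDL-1) signals through DAP12, the product of Tyrobp. These routes meet at the kinase Syk and the adaptor Card9 and switch on cytokine genes, whereas Clec4a2 (DCIR) carries an inhibitory tyrosine motif. Clec10a (MGL1) binds galactose and N-acetylgalactosamine and marks tissue macrophages and dendritic cells.

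All members except Clec10a lie on chromosome 6. In the positions that the files give, on a genome build that they do not name, the probes of Clec4n (start 123281342), Clec4d (start 123311550) and Clec4e (start 123319640) are neighbours, followed at a distance by Clec7a (start 129485033). Clec4a3 (start 123006600) and Clec4a2 (start 123165001 for its second probe) lie on the other side of them, Clec5a (start 40507043) lies far away on the same chromosome, and Clec10a (chromosome 11, start 70252304) lies on another. The span of the Clec4n probe (1907 bases) and of the second Clec4a2 probe (11223 bases) exceeded the 60 bases that most probes cover. Whether a probe lies in an exon or an untranslated region was not examined here.

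Promoters are shown because 6 of the 9 tested probes rose after injury in wild-type tracheas. RefSeq's table (GRCm38.p6) held an annotated start for 6 of the 8 members, all but Clec4n and Clec10a. The 250 bases before the start are printed for Clec4e and Clec4d, which had the largest fitted changes, for Clec4a2, an inhibitory member, and for Clec7a, a called member without a match. Capitals mark matches to the C/EBP-like motif TTNNGNAA, searched on both strands. Clec4e and Clec7a lie on the minus strand and Clec4d and Clec4a2 on the plus strand.
Clec4e promoter (chr6:123289872-123290121), 5′ to 3′: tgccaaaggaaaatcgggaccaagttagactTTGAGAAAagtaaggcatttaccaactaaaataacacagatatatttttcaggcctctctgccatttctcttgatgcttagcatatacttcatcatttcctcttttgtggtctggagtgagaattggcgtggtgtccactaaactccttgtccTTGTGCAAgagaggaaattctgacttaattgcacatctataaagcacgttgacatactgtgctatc
Clec4d promoter (chr6:123261857-123262106), 5′ to 3′: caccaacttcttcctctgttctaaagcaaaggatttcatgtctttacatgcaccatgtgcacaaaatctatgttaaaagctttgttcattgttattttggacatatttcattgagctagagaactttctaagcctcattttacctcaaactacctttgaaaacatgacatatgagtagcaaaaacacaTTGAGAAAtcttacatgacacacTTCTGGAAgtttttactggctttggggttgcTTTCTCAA
Clec4a2 promoter (chr6:123122440-123122689), 5′ to 3′: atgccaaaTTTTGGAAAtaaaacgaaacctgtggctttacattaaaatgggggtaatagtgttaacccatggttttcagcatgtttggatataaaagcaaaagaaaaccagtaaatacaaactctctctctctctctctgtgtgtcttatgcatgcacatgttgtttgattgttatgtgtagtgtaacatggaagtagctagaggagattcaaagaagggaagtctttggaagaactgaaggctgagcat
Clec7a promoter (chr6:129472780-129473029), 5′ to 3′: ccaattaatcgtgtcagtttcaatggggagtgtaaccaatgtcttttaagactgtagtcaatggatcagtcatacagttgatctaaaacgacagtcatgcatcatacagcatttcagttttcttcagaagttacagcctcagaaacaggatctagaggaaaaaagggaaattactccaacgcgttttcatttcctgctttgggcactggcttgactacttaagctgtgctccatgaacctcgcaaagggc

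The window of Clec4e held 2 matches to TTNNGNAA, that of Clec4d 3, that of Clec4a2 2 that overlap each other and that of Clec5a 1. The windows of Clec7a and Clec4a3, each with 2 annotated starts, held 0. The same letters occur in 36.8% of the 32851 windows in the table, against 4 of the 8 windows of members. The NF-kB-like motif GGGNNTTTC (3.72% of all windows), the PU.1-like motif GAGGAAGT (2.44%) and the AP-1-like motif TGANTCA (6.75%) were in 0 of the members' windows, which says only that these letters were not there.

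A level is given throughout on a log2 scale on which 0 is the 75th percentile of the array's probe intensities. Levels of different probes are not compared. Between 57.5% and 67.8% of spots were well above background on an array. Samples are numbered 1 to 5 in each group as in their labels, and arrays with the same number shared a slide. Slides 2, 3 and 4 were scanned on one day, and slides 1 and 5 on another. The Myd88 probe read 1.84 to 2.17 in uninjured wild-type, 1.48 to 1.93 in uninjured Myd88KO, 2.24 to 2.68 in injured wild-type and 1.43 to 2.00 in injured Myd88KO tracheas. The files do not say whether this probe lies in the deleted stretch, so its level does not check the genotype labels. Of the injured Myd88KO samples, sample 5 stood furthest from the injured wild-type range in secretory cell genes. The mean log2 level of 5 secretory cell genes, which are lost with the epithelium, was 6.18 there, against 7.13 to 7.68 in uninjured Myd88KO and 1.98 to 3.04 in injured wild-type tracheas. In the other injured Myd88KO samples it was 4.91 (sample 1), 1.92 (sample 2), 3.53 (sample 3) and 2.25 (sample 4). Samples 1 and 3 thus also lay above the injured wild-type range. In the alternative with array weights, injured Myd88KO samples 1 and 5 had the lowest weights of the 20 arrays (0.309 and 0.309). The receptor calls in Myd88KO injury, and some receptor differences in the other comparisons that include sample 5, are also given without sample 5. That choice was made after these values were seen. Other results that include sample 5 are given only with it.

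The wild-type comparison asked how the receptors change in the trachea after epithelial injury. Clec4e, Clec4d, Clec4n, Clec7a and Clec4a3 rose, as did 1 of the 2 tested probes of Clec4a2. The fitted rises ran from 4.19-fold for the second Clec4a2 probe to 46.3-fold for Clec4d and 61.5-fold for Clec4e. Clec4e was well above background on 1 of the 5 uninjured wild-type arrays, so that the size of its fold, and its place above Clec4d, rest on values at background. The change of Clec5a and of Clec10a did not pass the threshold, which was an adjusted p under 0.01 in limma over all tested probes.

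Clec4e, which encodes Mincle, was at -3.25, -5.84, -6.31, -5.65 and -6.33 in uninjured wild-type samples 1 to 5 and at 1.36, -0.28, -0.36, -0.79 and 2.41 in injured wild-type samples 1 to 5. Every injured sample was above every uninjured one, and uninjured sample 1 was the highest of its group and the only one well above background there. The difference was 5.94 (SE 1.01, 95% interval 3.84 to 8.05, adjusted p = 0.00113), and on the 5 slides it lay between 4.61 and 8.74.

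Clec4d encodes MCL, which pairs with Mincle. It was at -0.95, -3.96, -4.18, -3.61 and -3.86 in uninjured wild-type samples 1 to 5 and at 2.91, 1.79, 1.36, 1.20 and 3.84 in injured wild-type samples 1 to 5. Uninjured sample 1 again stood highest, and the groups did not overlap. The difference was 5.53 (SE 1.19, 95% interval 3.05 to 8.01, adjusted p = 0.00497), a 46.3-fold rise.

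Clec4n encodes Dectin-2, a receptor for mannan. Its level was -3.09, -3.39, -3.73, -3.68 and -3.47 in uninjured wild-type samples 1 to 5, which is a narrow range, and 0.43, 0.69, -0.48, -0.18 and 1.20 in injured wild-type samples 1 to 5. The difference of 3.80 (SE 0.68, adjusted p = 0.00166) was a 14.0-fold rise without overlap.

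Clec7a, the gene of Dectin-1, was at -0.16, -0.49, -1.28, -1.12 and -0.72 in uninjured wild-type samples 1 to 5 and at 2.44, 2.35, 1.46, 1.33 and 3.86 in injured wild-type samples 1 to 5. Injured samples 1, 2 and 5 were the highest, and the groups did not overlap. The rise was 3.04 on the log2 scale (SE 0.65, adjusted p = 0.00501), or 8.23-fold.

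Clec5a, the DAP12-coupled receptor MDL-1, was at -1.41, -2.03, -2.62, -2.08 and -1.92 in uninjured wild-type samples 1 to 5 and at 1.20, -1.31, -0.26, -1.56 and 1.62 in injured wild-type samples 1 to 5. Injured samples 1 and 5 were far above the uninjured range, while injured sample 4 lay inside it. The difference of 1.95 (SE 0.62, 95% interval 0.65 to 3.25, adjusted p = 0.0442) did not pass the threshold. Of the untested Clec5a probes, the second was well above background on 3 of 20 arrays, namely injured wild-type samples 1 and 5 and injured Myd88KO sample 4, and the third on injured wild-type sample 1 alone.

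Clec4a2, the gene of the inhibitory receptor DCIR, had 2 tested probes. The first, which the array also assigns to an accession of the neighbouring lectin gene Clec4b1 and which may therefore read either transcript, was at 0.61, 0.34, -0.36, -0.04 and 0.30 in uninjured wild-type samples 1 to 5 and at 2.50, 1.07, 0.95, 1.11 and 2.13 in injured wild-type samples 1 to 5. The second was at -2.80, -3.0, -3.49, -3.30 and -3.12 in uninjured wild-type samples 1 to 5 and at -0.06, -1.54, -1.96, -1.48 and -0.33 in injured wild-type samples 1 to 5. On both probes all injured samples were above all uninjured ones, with samples 1 and 5 the highest. The second probe passed the threshold (2.07, SE 0.47, adjusted p = 0.00712), while the first missed it (1.38, SE 0.36, adjusted p = 0.0170) and passed it with the slide as a replicate block (adjusted p = 0.00811). The remaining Clec4a2 probe was well above background on 0 arrays.

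Clec4a3, a close relative of Clec4a2, was at -2.62, -2.65, -2.93, -2.58 and -3.04 in uninjured wild-type samples 1 to 5 and at 0.75, -0.53, -0.99, -0.74 and -0.09 in injured wild-type samples 1 to 5. The groups were far apart relative to their spread. The rise was 2.45 (SE 0.51, adjusted p = 0.00426), or 5.46-fold.

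Clec10a, the galactose-binding receptor, behaved differently. It was at 2.75, 2.09, 1.48, 2.12 and 2.31 in uninjured wild-type samples 1 to 5 and at 2.88, 2.02, 2.70, 2.54 and 2.86 in injured wild-type samples 1 to 5. The groups overlapped, and the difference was 0.45 (SE 0.30, 95% interval -0.17 to 1.07, adjusted p = 0.354).

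**Figure D1:**
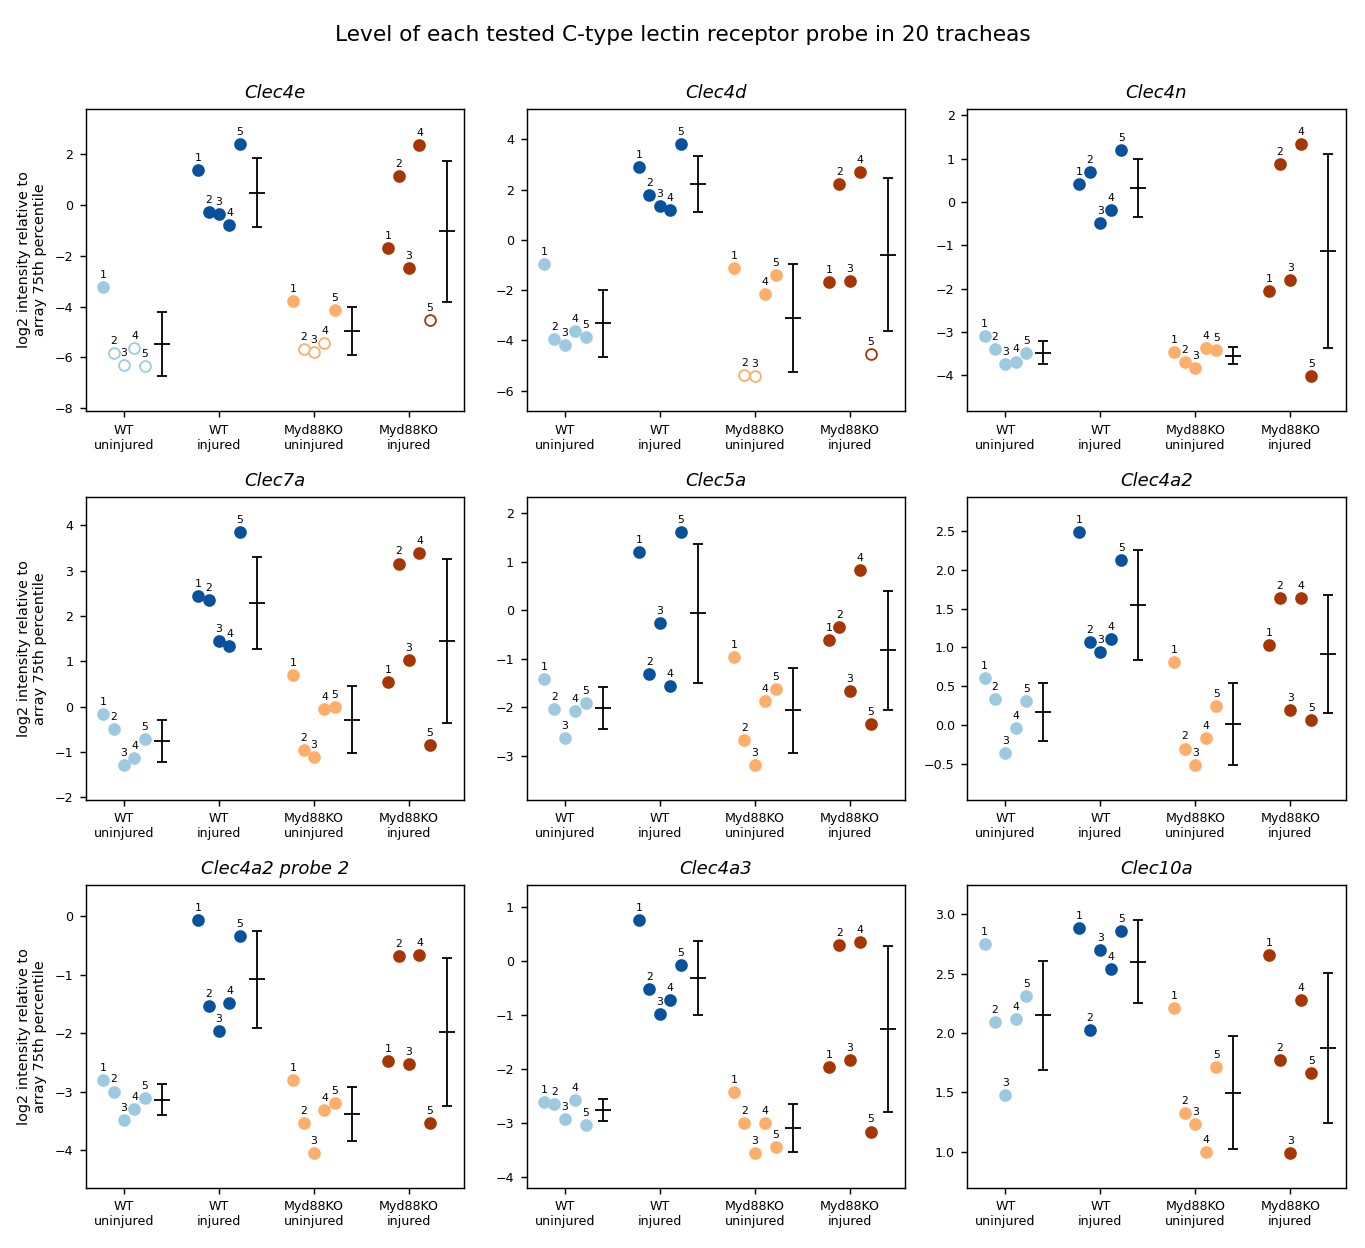
Log2 level of the 9 tested probes in the 20 tracheas, 1 panel per probe with its own vertical scale. Points are samples numbered as in their labels, open points were not well above background, and bars are mean and SD of 5 samples; all injured wild-type points lie above all uninjured wild-type points in 7 panels, and injured Myd88KO points spread widely.

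In all, 6 of the 9 probes were called higher in injured wild-type tracheas and 0 lower, against 3.17% of the 26064 tested probes called higher and 5.23% called in either direction. All 5 injured samples were above all 5 uninjured samples on 7 of 9 probes, against 7.55% of tested probes. The median difference of the 9 probes was 2.45, and that of all tested probes -0.02. When 1 sample was left out, the count fell to 2 (without uninjured sample 2, 4 or 5, or without injured sample 1 or 5) or to 3 (without uninjured sample 3 or injured sample 2). Of all tested probes 670 to 921 were called in the former fits, and 1213 and 851 in the latter, against 1362 with every sample. Clec4e and Clec4n were called in each of the 20 leave-one-out fits, with an adjusted p of at most 0.00429 and 0.00567. Clec4e passed the filter on dim probes mainly through injured arrays. It was well above background on 5 injured wild-type and 4 injured Myd88KO arrays, but on 1 and 2 uninjured ones. Its repeated calls rest on the same uninjured values at background. Within the scanning days, an alternative chosen after the data were seen, the probes called were Clec4e and Clec4n on slides 2, 3 and 4 (831 of all tested probes called) and Clec4n and the second Clec4a2 probe on slides 1 and 5 (672 called), where Clec4e missed the threshold (6.68, adjusted p = 0.0186). More cells of a type and more RNA per cell cannot be told apart in whole tissue.

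In Myd88KO tracheas the same comparison asked whether the receptors respond to injury without Myd88. The fitted differences were positive for all 9 probes, but 0 were called, against 0.13% of tested probes called higher. At an unadjusted p under 0.05 in limma the count was 7 of 9, against 5099 of the 26064 tested probes. The 5 injured Myd88KO samples did not behave as a group, which is seen in each of the receptors that rose in wild-type tracheas.

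Clec4e was at -3.78, -5.67, -5.78, -5.45 and -4.13 in uninjured Myd88KO samples 1 to 5 and at -1.68, 1.14, -2.47, 2.34 and -4.54 in injured Myd88KO samples 1 to 5. Samples 2 and 4 were within the injured wild-type range, samples 1 and 3 lay between the groups, and sample 5 lay in the uninjured range. Of the 5 uninjured arrays, samples 1 and 5 were well above background. The difference was 3.92 (SE 1.01, adjusted p = 0.0379), the lowest adjusted p of the members here.

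Clec4d was at -1.11, -5.38, -5.43, -2.16 and -1.38 in uninjured Myd88KO samples 1 to 5 and at -1.66, 2.23, -1.65, 2.72 and -4.53 in injured Myd88KO samples 1 to 5. Only injured samples 2 and 4 exceeded the uninjured range, which was itself broad and included 2 arrays, samples 2 and 3, not well above background. The difference was 2.51 (SE 1.19, adjusted p = 0.249).

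Clec4n was at -3.46, -3.68, -3.83, -3.37 and -3.41 in uninjured Myd88KO samples 1 to 5 and at -2.04, 0.89, -1.81, 1.35 and -4.02 in injured Myd88KO samples 1 to 5. Here 4 injured samples were above every uninjured sample and sample 5 was below all of them. The difference was 2.42 (SE 0.68, adjusted p = 0.0571).

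Clec7a was at 0.69, -0.96, -1.10, -0.05 and -0.01 in uninjured Myd88KO samples 1 to 5 and at 0.54, 3.16, 1.03, 3.40 and -0.85 in injured Myd88KO samples 1 to 5. Injured samples 2 and 4 were again the highest and sample 5 the lowest, and the difference was 1.74 (SE 0.65, adjusted p = 0.147).

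Clec5a ranged from -3.18 to -0.95 (median -1.88) in uninjured and from -2.35 to 0.83 (median -0.60) in injured Myd88KO tracheas, a difference of 1.24 (adjusted p = 0.280). The difference of the first Clec4a2 probe was 0.90 (adjusted p = 0.178) and that of the second 1.40 (adjusted p = 0.105), with injured samples 2 and 4 the highest on both.

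Clec4a3 was at -2.44, -3.01, -3.56, -3.01 and -3.45 in uninjured Myd88KO samples 1 to 5 and at -1.98, 0.28, -1.84, 0.34 and -3.17 in injured Myd88KO samples 1 to 5. Injured samples 2 and 4 exceeded 4 of the 5 injured wild-type samples, and sample 5 was inside the uninjured range. The difference was 1.82 (SE 0.51, adjusted p = 0.0561).

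Clec10a was at 2.21, 1.32, 1.23, 1.00 and 1.72 in uninjured Myd88KO samples 1 to 5 and at 2.65, 1.77, 0.99, 2.28 and 1.66 in injured Myd88KO samples 1 to 5. The groups overlapped, with a difference of 0.37 (SE 0.30, adjusted p = 0.519).

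Over the 8 genes, with 1 probe per gene, the median change of a sample from the uninjured mean of its genotype was 3.41 and 3.56 in injured Myd88KO samples 2 and 4, 1.3 and 1.28 in samples 1 and 3, and -0.18 in sample 5. In injured wild-type samples 1 to 5 it was 3.37, 2.67, 2.00, 2.06 and 4.13. Samples 2 and 4 thus lay inside the wild-type range, and samples 1, 3 and 5 below it. The secretory cell genes given above were lowest in injured Myd88KO samples 2 and 4 and highest in sample 5, while samples 1 and 3, with almost the same receptor change, differed in them (4.91 and 3.53). In injured wild-type tracheas the sample with the lowest secretory level, sample 3 (1.98), had the smallest receptor change. The part of the extent of injury in this result was not tested.

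**Figure D2:**
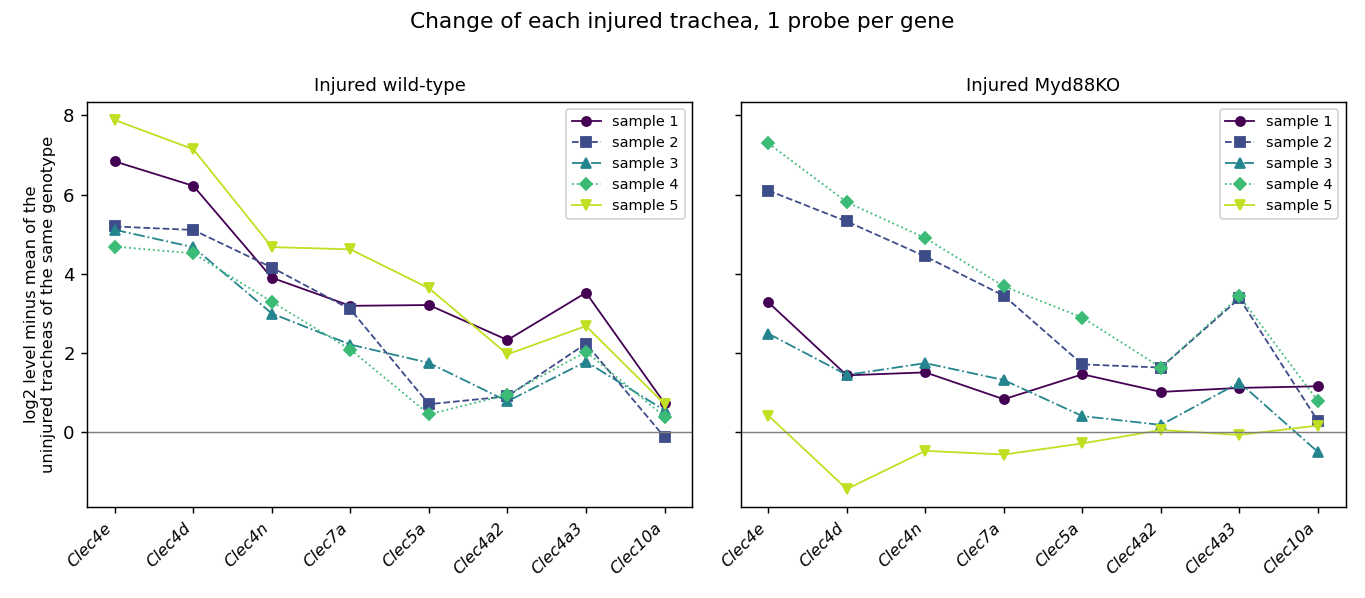
Log2 level of each receptor gene in each injured trachea minus the mean of the 5 uninjured tracheas of its genotype, 1 probe per gene and 1 line per sample, wild-type left and Myd88KO right. Myd88KO samples 2 and 4 follow the wild-type lines, samples 1 and 3 run lower, and sample 5 stays near 0 with a median of -0.18.

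Without injured Myd88KO sample 5, 3 of the 9 probes were called higher (1096 of the tested probes were called in either direction), namely Clec4e (4.79, adjusted p = 0.00246), Clec4n (3.15, adjusted p = 0.00119) and Clec4a3 (2.30, adjusted p = 0.00309). Within the scanning days, 6 of the 9 probes were called on slides 2, 3 and 4, where 1047 of all tested probes were called, and 0 on slides 1 and 5, where 0 of all tested probes were called, against 95 over both days. On the latter the difference of Clec4d was -1.85 and that of Clec7a -0.50, as against 5.43 and 3.23 on the former. Slides 1 and 5 held 2 samples per group, among them injured sample 5, so that day and samples cannot be told apart.

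The genotypes were compared to see whether receptor levels differ between them before and after injury. In uninjured tracheas 0 of 9 probes were called in limma, against 0.376% of tested probes. An unadjusted p under 0.05 was found for 1 of the 9, Clec10a, against 1451 of the 26064 tested probes. Clec10a was 0.65 lower in Myd88KO tracheas (difference -0.65, SE 0.30, adjusted p = 0.848), on each of the 5 slides, by -0.24 to -1.12. The other differences between uninjured genotypes ran from -0.33 (Clec4a3) to 0.51 (Clec4e), and the 95% interval of the Clec4e difference, -1.59 to 2.62, shows how little the spread allows to be said of that gene. The second Clec4a2 probe (-0.24) was also lower on each of the 5 slides, by -0.007 to -0.557. The share of all tested probes that were lower on every slide was not computed.

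In injured tracheas all 9 probes had a lower mean in Myd88KO than in wild-type samples, but 0 were called in limma, against 0.38% of tested probes. At an unadjusted p under 0.05 there were 3, Clec4d (-2.80, 95% interval -5.28 to -0.32, adjusted p = 0.327), Clec4n (-1.46, adjusted p = 0.388) and Clec10a (-0.73, 95% interval -1.35 to -0.11, adjusted p = 0.302). The same was true of 3257 of the 26064 tested probes. Clec4d and Clec4n were lower in Myd88KO on 3 of 5 slides and higher on the 2 that held samples 2 and 4. Clec10a was lower on 5 of 5 slides, by -0.23 to -1.71. Without injured Myd88KO sample 5 the differences were -1.81 for Clec4d, -0.73 for Clec4n and -0.68 for Clec10a, and 0 probes were called. Most of the 9 probes followed one another across arrays, so that a direction shared by all 9 is not 9 separate results. This holds for Myd88KO injury and for the difference between responses as well. The share of all tested probes with the same direction was not computed.

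Within the scanning days the injured genotypes differed unequally. Slides 1 and 5 held 2 samples per group, and the scanning day cannot be told apart from those samples. Injured Myd88KO samples 1 and 5 had the highest secretory levels of their group (4.91 and 6.18). Injured wild-type samples 1 and 5 had the largest median receptor changes of theirs (3.37 and 4.13). On slides 2, 3 and 4 the differences were 0.81 for Clec4e, -0.35 for Clec4d, 0.13 for Clec4n and 0.82 for Clec7a, and 0 of the 9 probes were called (63 of all tested probes). On slides 1 and 5 they were -5.0, -6.47, -3.85 and -3.30 for the same genes, and 2 probes were called, Clec4n (adjusted p = 0.00873) and the second Clec4a2 probe (-2.82, adjusted p = 0.00430), where 1235 of all tested probes were called, against 99 over both days. The Clec10a difference was -0.74 and -0.71 on the 2 days.

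The difference between the injury responses, which compares the response of Myd88KO with that of wild-type tracheas, was negative for all 9 probes and 0 were called, against 0% of tested probes. An unadjusted p under 0.05 was reached by 0 of the 9 probes, against 2658 of the 26064 tested probes. The largest difference was that of Clec4d (-3.02, 95% interval -6.52 to 0.49, adjusted p = 0.541), followed by Clec4e (-2.03, 95% interval -5.0 to 0.95, adjusted p = 0.622). For Clec10a the interval was the narrowest, -0.95 to 0.80. These intervals include both no difference and a wild-type response several times stronger for Clec4e and Clec4d. Without injured Myd88KO sample 5 the difference between responses ran from -0.02 (Clec10a) to -2.03 (Clec4d), with Clec4e at -1.15. In that fit 0 of the 9 probes and 3 of all tested probes were called.

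**Figure D3:**
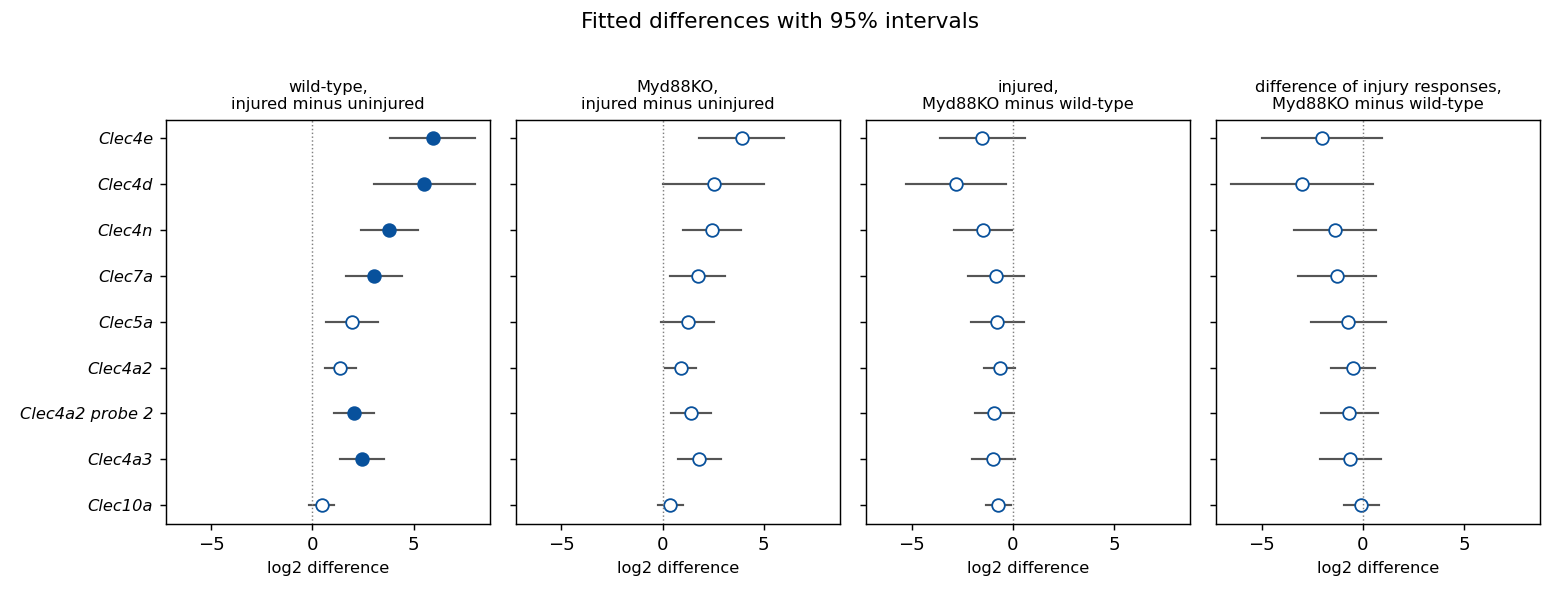
Fitted log2 differences of the 9 tested probes with 95% intervals in 4 comparisons, filled where the adjusted p was under 0.01. Filled points occur in the wild-type comparison alone, for 6 probes, and 8 of the 9 intervals of the difference between responses extend from below -1 to above 0.

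The genes through which these receptors signal were examined as a list of 17, of which 16 were measured and tested and Card9 was not found on the array. In injured wild-type tracheas 10 of the 16 rose and 0 fell, with a median difference of 1.04, against 3.17% of all tested probes called higher. The 3 with the largest rise were the Src-family kinase Fgr (3.34, adjusted p = 0.00102), the gamma chain Fcer1g (2.46, adjusted p = 0.00161) and the DAP12 gene Tyrobp (2.43, adjusted p = 0.00301). Syk, the kinase at which the gamma chain, DAP12 and Dectin-1 routes meet, rose by 1.85 (adjusted p = 0.00968). Bcl10 and Malt1, which act with Card9, gave 0.18 and 0.07 and did not pass. In Myd88KO tracheas 0 of the 16 were called after injury, near the share of all tested probes called there (95 of 26064). Fcer1g was at 0.95 (adjusted p = 0.240), Tyrobp at 0.95 (adjusted p = 0.286) and Syk at 1.06 (adjusted p = 0.191).

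Among 11 cytokine genes that these receptors can induce, 5 were tested, and 2 of them rose in wild-type tracheas, against 3.17% of all tested probes. These were the chemokine genes Ccl3 (5.97, adjusted p = 0.000533) and Ccl2 (3.30, adjusted p = 0.000481). Il1b gave 3.82 (adjusted p = 0.0229), Cxcl1 0.79 (adjusted p = 0.547) and Tnf -0.22 (adjusted p = 0.825). In Myd88KO tracheas 0 of the 5 were called, near the share of all tested probes (95 of 26064), with Ccl3 at 3.07 (adjusted p = 0.0665) and Ccl2 at 1.17 (adjusted p = 0.197). Il10, Il12b and Il23a were well above background on 0 arrays.

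Of 8 ligand and partner genes, all tested, 1 rose in wild-type tracheas, against 3.17% of all tested probes. This was Lgals3 (1.17, adjusted p = 0.00139), the gene of galectin-3, and the list's median difference was 0.43. Among 28 other C-type lectin genes, 17 were tested and 0 were called after injury in either genotype, with a median difference of 0.09 in wild-type tracheas. Of all tested probes 5.23% were called in wild-type injury, and 95 of 26064 in Myd88KO injury. Mgl2, the near relative of Clec10a, gave -0.61 (adjusted p = 0.0309) and Mrc1, the macrophage mannose receptor, 1.31 (adjusted p = 0.0406). The exception in this list was Clec16a, which despite its name acts inside the cell in autophagy, and which was higher in Myd88KO than in wild-type tracheas, by 1.19 uninjured (adjusted p = 0.000271) and by 0.95 injured (adjusted p = 0.00393).

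Markers of leukocytes moved with the receptors. In injured wild-type tracheas 4 of 6 pan-leukocyte genes, 8 of 12 monocyte and macrophage genes, 2 of 8 neutrophil genes and 2 of 7 dendritic cell genes were called higher, and 0 of the tested T cell, B cell and mast cell genes were called. Of all tested probes 3.17% were called higher and 5.23% in either direction. The summed level of the 6 pan-leukocyte genes, in units of each array's 75th percentile, was 6.21 to 13.7 in uninjured and 19.1 to 58.4 in injured wild-type tracheas, and 8.88 to 16.5 in uninjured and 8.58 to 31.9 in injured Myd88KO tracheas. The mean log2 level of the 12 monocyte and macrophage genes was 0.04 to 0.55, 1.53 to 2.85, 0.08 to 0.91 and 0.13 to 1.99 in the same order, and their summed level, most of it Lyz2, overlapped between all groups (263 to 519). The mean log2 level of the 12 neutrophil genes measured was -3.52 to -1.94, -1.90 to 0.33, -4.31 to -3.21 and -3.99 to -1.41 in that order. Their summed level, most of it Ltf, overlapped between all groups as well (322 to 667). The neutrophil genes Ngp and Elane were well above background on 0 arrays. Uninjured wild-type sample 1, in which Clec4e and Clec4d stood highest, also had the highest neutrophil value of its group (-1.94) and the highest pan-leukocyte sum (13.7). The part of a change in leukocyte number in the rise of the receptors was not tested.

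To set the receptors against the leukocyte genes, the mean log2 level of the 6 pan-leukocyte genes was subtracted from each probe on the same array, as a description without a test. Clec4e, Clec4d, Clec4n and Clec7a were still higher in every injured than in every uninjured wild-type sample, by 3.94, 3.53, 1.80 and 1.04. Clec4a3 (0.45), the second Clec4a2 probe (0.07) and Clec5a (-0.05) overlapped between these groups. The first Clec4a2 probe (-0.62) and Clec10a (-1.55) were lower in every injured wild-type sample, and Clec10a went from 2.32 to 2.73 in uninjured samples to 0.40 to 1.84 in injured ones. The subtracted mean itself was -0.85 to 0.02 in uninjured and 0.86 to 2.46 in injured wild-type samples. A probe with an unchanged level therefore comes out lower on this scale. Before subtraction the differences of these probes were 1.38 and 0.45. The share of all tested probes that separate on this scale was not computed. Before subtraction, the median wild-type difference was 1.93 for the pan-leukocyte, 1.76 for the monocyte and macrophage and 2.71 for the tested neutrophil genes. Of these markers Csf3r (4.03), Msr1 (3.92), Fcgr1 (3.58) and Cd68 (3.26) rose more than Clec7a (3.04), while Lyz2 (-0.08) did not rise. A rise beyond that of the pan-leukocyte genes was thus not particular to the receptors. The Clec4e value rests on uninjured values at background. Between injured genotypes the relative levels of all 9 probes overlapped, and the largest mean difference was that of Clec4d (-1.80).

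**Figure D4:**
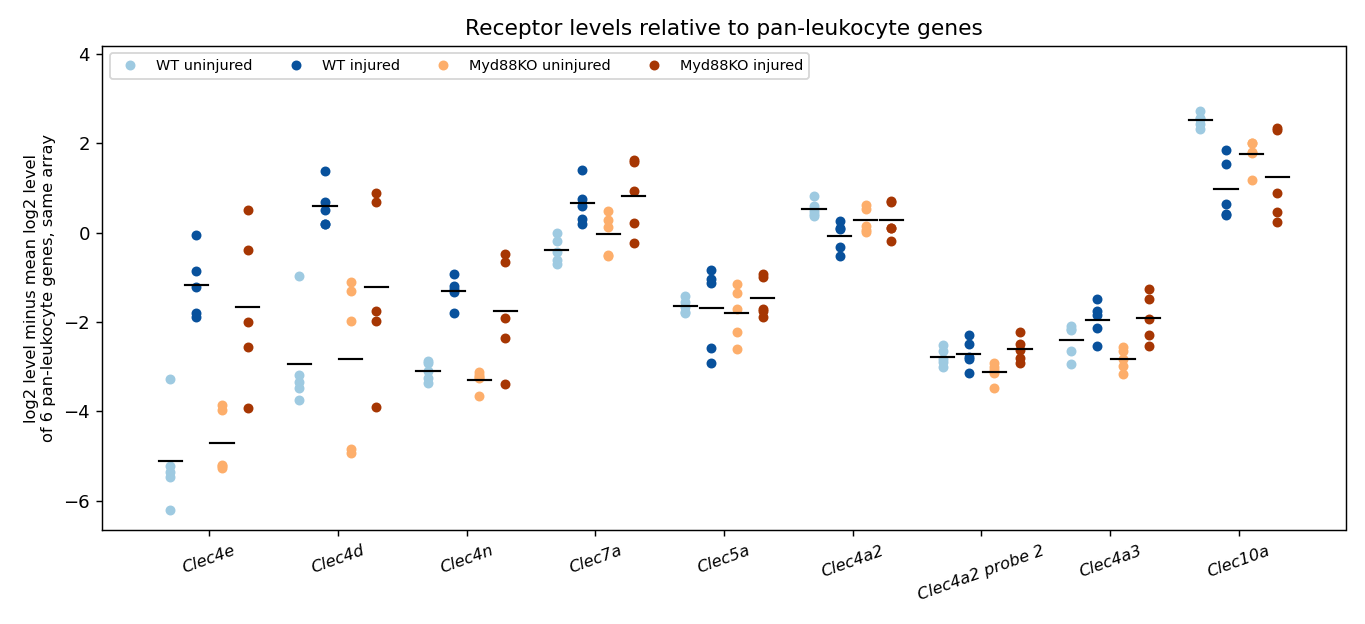
Log2 level of each tested probe minus the mean log2 level of 6 pan-leukocyte genes on the same array, with points for the 20 samples and lines for group means. In wild-type tracheas Clec4e, Clec4d, Clec4n and Clec7a remain higher after injury without overlap, by 1.04 to 3.94, while Clec10a is lower without overlap, by 1.55. The subtracted mean itself rose after injury, so that a probe with an unchanged level comes out lower here.

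Across the 20 arrays, which share the 4 groups and the injury, 7 of the receptors followed one another closely. Pearson's r between them, with 1 probe per gene, was 0.818 (Clec4n with Clec5a) to 0.966 (Clec4n with Clec4a3), and Clec10a had an r of 0.448 (with Clec7a) to 0.723 (with Clec4a2). For Clec4a2 this was the first probe, which may also read Clec4b1. Its second probe had an r of 0.978 with Clec4a3 and 0.955 with Clec4n. With the group means removed, r was 0.644 (Clec4n with Clec5a) to 0.929 (Clec4e with Clec4d) among the 7, and Clec10a had an r of 0.195 (with Clec4n) to 0.693 (with Clec4a2), so that the ranges overlapped. These values describe the arrays and carry no test.

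The 3 genes most like Clec4e over the 20 arrays were Ccl3 (r = 0.977), Fgr (r = 0.976) and Cd300c2 (r = 0.972), and those most like Clec4d were Tfec (r = 0.966), Trem2 (r = 0.965), a lipid receptor of macrophages, and Acod1 (r = 0.964), which makes itaconate. Clec4n was nearest to Ms4a6d (r = 0.988), the Fc receptor gene Fcgr3 (r = 0.985) and Csf2rb (r = 0.983), a receptor chain for granulocyte-macrophage growth factor. Clec4a3 was nearest to Fcgr3 (r = 0.983), Ms4a6d (r = 0.980) and Fcgr2b (r = 0.979). Clec7a was nearest to Cd300c2 (r = 0.975), Ly9 (r = 0.971) and the scavenger receptor gene Msr1 (r = 0.966). Clec5a was nearest to Mrc1 (r = 0.972), Samsn1 (r = 0.966) and Cd48 (r = 0.959). The first Clec4a2 probe was nearest to Cd48 (r = 0.981), Marchf1 (r = 0.981) and Lair1 (r = 0.980), an inhibitory collagen receptor. Clec10a was nearest to Spink2 (r = 0.893), Nts (r = 0.892) and Mbd1 (r = 0.866), and 0 of these 3 were among the genes nearest to another member.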

How the data were processed

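The authors deposited Feature Extraction (version 9.5.1.1) output for each array and a table of the same values (ratio of table to scanner value 0.995 to 1.00). The deposited intensity is background-subtracted and spatially detrended, spots not above background carry a surrogate value, and arrays were not scaled to one another. Depth does not apply to arrays, and the number of arrays, 5 per group, limits the precision. Groups and replicate numbers came from the sample labels, and the study's methods call the samples of a group biological replicates. For the uninjured samples also used in quantitative RT-PCR, the study's supplementary methods count as many mice as samples. For the others neither labels nor methods say whether each was a separate animal. The p-values measure the spread between these samples.

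Control spots (1639 of 45018) and 1960 outlier spot values were left out, spots of 1 probe were averaged, and log2 intensity was taken relative to each array's 75th percentile. Different probes of a gene were kept apart, and the brightest stood for its gene where 1 was needed. Probes well above background on at least 10 of 20 arrays were tested (26064). All 20 arrays were fitted in limma 3.58.1 (R 4.3.3, statmod 1.5.0, data.table version 1.17.8) without covariates, following the study's threshold of an adjusted p under 0.01 and its filter on transcripts present in under 50% of samples, with 5 contrasts and Benjamini-Hochberg adjustment over all tested probes within each. The fit was tested on simulated data. Genes were named through RefSeq (GRCm38.p6), by accession for 22951 probes, by symbol for 6659 and by an older symbol for 3109, and 8455 kept the array's name.

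The members and gene lists were chosen with earlier results of these data known. Named are the members, Myd88, from each list at most the 4 called genes of largest wild-type change, the 3 genes nearest to each member by Pearson's r, and list genes called between injured genotypes or in Myd88KO injury; 1 gene that this rule names is not reported here. Outside this rule, and chosen after their values were seen, are Syk, Bcl10, Malt1, Mgl2, Il1b, Cxcl1, Tnf, Il10, Il12b, Il23a, Ngp, Elane, Csf3r, Fcgr1, Cd68, Lyz2 and Ltf. Same-numbered arrays shared a slide per the file headers. Their deviations from the group means correlated at 0.25 to 0.48 between the uninjured groups, but at -0.22 to 0.33 between the injured groups. Alternatives were another background correction, scaling or filter, array weights, the slide or scanning day as a block, fits on 2 groups, the study's one-way test, an adjusted p under 0.05, leaving out each sample and single scanning days. Probe and protein sequences were not used here.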

Additional observations from a re-analysis of the deposited data

Results flagged for a closer look

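Among 36 groups of 5 samples (9 probes in 4 groups), the gap test flagged 2, where chance flags about 1 in 20. Clec4e in uninjured wild-type sample 1 was -3.25, with the nearest sample at -5.65. Clec4d in the same sample was -0.951, with the nearest at -3.61. Both values stood above those of the other 4 samples of the group.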

How the results depend on the processing

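The count of receptor probes called was 0 for uninjured genotypes and for the difference between responses under every alternative. In wild-type injury it was 5 to 8 under the other alternatives that kept all samples of the 2 compared groups. It was 2 within either scanning day (days are alternatives chosen after the data were seen) and 2 to 6 when 1 sample was left out. Of all tested probes these settings called 1031 to 3290, then 831 and 672, and 670 to 1829, against 1362. In Myd88KO injury the count of receptor probes was 5 with array weights, 1 at an adjusted p under 0.05, 6 on slides 2, 3 and 4, and 0 to 3 when 1 sample was left out. Under the first 3 of these settings 2187, 852 and 1047 of all tested probes were called, against 95. Between injured genotypes it was 2 on slides 1 and 5, where 1235 of all tested probes were called, against 99. With the slide as a replicate block the count was 7 in wild-type injury and 0 in each other comparison, and the call of the first Clec4a2 probe was the one it added. The arrays' number and the 4 of 5 uninjured wild-type arrays on which Clec4e was not well above background limit what can be said. Leaving samples out also lowers the power of a fit, and the cause of the other changes was not tested.

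Of the single differences, 37 changed direction under an alternative. Those that did so within 1 scanning day included differences far from 0, such as that of Clec4d in Myd88KO injury (2.51) and between responses (-3.02). For the difference between responses, Clec10a was 0.020 after quantile normalization and -0.27 to 0.14 with 1 sample left out, and Clec4a3 was 0.12 with array weights. On slides 2, 3 and 4 that difference was 0.42 and 0.74 for the first and second Clec4a2 probes, 0.82 for Clec4a3, 0.057 for Clec4d, 0.51 for Clec4e, 0.16 for Clec4n, 0.98 for Clec5a and 0.56 for Clec7a. Between injured genotypes on the same slides it was 0.12 and 0.37 for the Clec4a2 probes, 0.35 for Clec4a3, 0.81 for Clec4e, 0.13 for Clec4n, 0.65 for Clec5a and 0.82 for Clec7a, and with array weights Clec7a was at 0.0068. Between uninjured genotypes Clec4d was -0.24 with array weights, -0.41 on slides 2, 3 and 4 and -0.28 to 0.81 with 1 sample left out. Clec4e was -0.0066 after normexp correction, Clec4n was -0.14 to 0.018 and Clec5a -0.33 to 0.23 with 1 sample left out, and on slides 1 and 5 the first Clec4a2 probe was 0.074 and Clec5a 0.37. In Myd88KO injury on slides 1 and 5, Clec4d was -1.85, Clec7a -0.50, Clec5a -0.18 and the second Clec4a2 probe -0.012. Of the remaining single differences under an alternative, 1371 kept their direction and their side of the threshold, 40 lost the call and 19 gained it.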
